A study of Mus musculus with 8 samples.

Results

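The olfactory receptor genes described here are the mouse genes whose symbol starts with Olfr and that reached at least 10 counts in at least 2 of 8 RNA-seq libraries. Of 1407 annotated Olfr genes, 94 met this threshold (6.68%), against 39.6% of all genes in the count table. A further 345 Olfr genes had at least 1 count but stayed below the threshold, and 968 had none in any library. Of the 94 members, 85 are annotated as protein coding and 9 as a pseudogene type. The rule reads the same counts that the comparisons below use, so the number of members and their levels are a description.

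Olfactory receptors are G-protein-coupled receptors that detect odorants at the cilia of olfactory sensory neurons, where each mature neuron normally expresses a single receptor gene from a single allele. The receptor acts through the G protein subunit Gnal, the adenylyl cyclase Adcy3 and the cyclic-nucleotide-gated channel that contains Cnga2. The genes lie in large tandem clusters, which are packed in heterochromatin in most other cells. In the sensory neuron the choice of a receptor depends on the homeodomain factor Lhx2, its partner Ldb1, the Ebf factors and the demethylase Kdm1a.

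The study measured polyadenylated RNA of mouse embryonic stem cells in 4 groups of 2 libraries each. The group mESC is wild type and untreated. The group 2C::GFP+ is also untreated and carries the genotype label of a reporter for a state that resembles the 2-cell embryo, and the labels do not say whether its cells were sorted. The group 2C::GFP+/SGC (here SGC) received 2 µM SGC0946, an inhibitor of the histone methyltransferase DOT1L, in medium with 20% KnockOut serum replacement and 10 ng/ml LIF. The group 2C::GFP+/SA (here SA) received 2 µM SGC0946 together with 2 µM AS8351, described as a histone demethylase inhibitor, in the same base medium with 10 ng/ml IL6/sIL-6R in the place of LIF. AS8351 and the change of cytokine therefore cannot be told apart. The labels give 2 media for the untreated stem cells without saying which group had which, so medium and group cannot be told apart in comparisons with mESC. The medium of 2C::GFP+ is not given by its labels either. A difference of medium may therefore also enter the comparisons of SGC and of SA with 2C::GFP+. The 2C::GFP+ columns of the count table were assigned to their group by elimination, because their header names the serum replacement and not the reporter.

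Replicate 1 of each group held between 96895327 and 145810034 counts and replicate 2 between 12299931 and 19544870. Few members could be measured in the shallow libraries, where 10 to 32 members reached 10 counts, against 35 to 91 in the deep ones. Levels are CPM, a gene's share of its library's counts scaled to 1000000 and by edgeR's TMM factors. When a fold is given, a group without any count is set at 3 counts over both libraries. The other group's counts are then pooled, so its deep library carries most of the fold and the spread between its libraries is not covered. The labels do not state that replicates came from separate cultures, so p-values may measure technical spread only. The 6 embryonic stem cell markers summed to between 2951 and 4672 CPM in the 8 libraries. The genes of the 2C-like state summed to 16.4 and 24.5 CPM in mESC, 748 and 893 in 2C::GFP+, 1816 and 1862 with SGC and 10433 and 4289 with SA, so the 2 SA libraries differed from each other in these genes as well. In bulk RNA, a larger share of cells with a transcript and more transcript per cell cannot be told apart.

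The start regions of members that carry the main contrasts are shown first, because some members with nearly the same start region differed in level. RefSeq windows (GRCm38.p6, the build of the annotation) run from 250 bases before to 50 bases after a gene's annotated RefSeq start. They were found by symbol for 69 of the 94 members. The last 150 bases of a window are printed 5′ to 3′ on the gene's strand, with TATAAA on either strand in capitals. In Olfr815, Olfr814, Olfr960, Olfr961 and Olfr787 the first 100 printed bases are followed by ATG, the triplet that starts translation. Such a start may be that of the coding sequence, so the windows may hold no promoter. Olfr815 (chr10:129902677-129902826, minus strand) rose with SA while Olfr814 (chr10:129874706-129874855, minus strand) was at similar levels in all 4 groups. Olfr960 (chr9:39623025-39623174, plus strand) and Olfr961 (chr9:39646628-39646777, plus strand) form a second such pair. Olfr881 (chr9:37992392-37992541), Olfr787 (chr10:129462578-129462727) and Olfr374 (chr8:72106940-72107089), all on the plus strand, are abundant members that rose. Olfr985 (chr9:40127990-40128139, minus strand) fell.
Olfr815: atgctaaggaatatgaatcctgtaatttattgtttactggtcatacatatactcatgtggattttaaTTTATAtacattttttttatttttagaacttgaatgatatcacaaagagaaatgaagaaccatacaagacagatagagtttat
Olfr814: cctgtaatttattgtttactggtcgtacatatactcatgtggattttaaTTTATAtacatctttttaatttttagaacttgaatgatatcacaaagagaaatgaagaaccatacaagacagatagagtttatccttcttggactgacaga
Olfr960: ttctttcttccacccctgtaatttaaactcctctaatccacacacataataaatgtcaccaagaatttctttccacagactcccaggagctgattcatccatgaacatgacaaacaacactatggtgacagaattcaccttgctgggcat
Olfr961: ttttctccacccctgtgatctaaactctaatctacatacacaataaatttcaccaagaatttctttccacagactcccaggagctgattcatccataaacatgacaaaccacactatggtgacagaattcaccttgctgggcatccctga
Olfr881: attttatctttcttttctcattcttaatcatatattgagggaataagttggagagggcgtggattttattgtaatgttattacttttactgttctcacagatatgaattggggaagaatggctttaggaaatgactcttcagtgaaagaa
Olfr787: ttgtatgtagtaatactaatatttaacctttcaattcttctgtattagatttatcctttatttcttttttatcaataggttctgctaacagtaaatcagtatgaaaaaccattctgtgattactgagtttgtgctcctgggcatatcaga
Olfr374: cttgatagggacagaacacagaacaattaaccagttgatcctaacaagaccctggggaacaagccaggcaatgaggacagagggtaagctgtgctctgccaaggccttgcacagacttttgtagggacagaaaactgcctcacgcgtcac
Olfr985: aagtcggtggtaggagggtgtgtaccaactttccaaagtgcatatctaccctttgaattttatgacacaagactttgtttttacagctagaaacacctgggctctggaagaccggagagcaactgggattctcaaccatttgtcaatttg

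With SA, 34 members rose over untreated 2C::GFP+ cells and 1 fell, of 73 members that passed edgeR's filter on low counts (quasi-likelihood test on all 8 libraries, Benjamini-Hochberg adjustment over 20608 genes, adjusted p under 0.05). Among all genes tested, 28.7% were called in this comparison, 14.9% higher and 13.8% lower. The 73 tested members had a median log2 fold change of 2.30, beside 0.01 over all tested genes. The filter lets a gene pass when it is high in a single group, so these counts describe the members that passed and not all 94. The other 21 members were too low for the test. Without 2C::GFP+ replicate 1 the number called was 15 and without SA replicate 1 it was 17.

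The most abundant member was Olfr376 (chr11:73371246-73377836, plus strand, 3 exon blocks), at 0.0146 and 0.205 CPM in mESC, 2.94 and 1.78 in 2C::GFP+, 9.01 and 5.51 with SGC and 79.0 and 27.0 with SA. Both SA libraries lay above all 6 others, and replicate 1 was the higher of the pair. Its log2 fold change over 2C::GFP+ was 4.43 ± 0.75 (SE, n = 2 against 2, edgeR adjusted p = 0.00891), but the call was lost without 2C::GFP+ replicate 1 (0.0564), without 2C::GFP+ replicate 2 (0.129) and without SGC replicate 2 (0.0561).

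Olfr374 (chr8:72107040-72118200), a member of a group of only 3 annotated Olfr genes, had 4 and 0 counts in mESC, then 414 and 58 in the 2C::GFP+ libraries, 1962 and 107 with SGC and 6191 and 343 with SA. In CPM it stood at 3.45 in both 2C::GFP+ libraries and at 67.8 and 26.4 with SA. The log2 fold change was 3.78 ± 0.52 (edgeR adjusted p = 0.00152, and 0.0729 without 2C::GFP+ replicate 2). Its exons share 87 bases with an annotated ribosomal RNA gene, Gm24747, which had no count in 2C::GFP+ or SA. The next gene downstream, Tpm4, which encodes a tropomyosin, had a log2 fold change of -0.17 in the same comparison (edgeR adjusted p = 0.517).

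Olfr787 (chr10:129461862-129467485) rose from 1.52 and 1.54 CPM in 2C::GFP+ to 7.67 and 4.62 with SGC and 50.4 and 16.8 with SA, with 2 and 0 counts in mESC. Its log2 fold change with SA over 2C::GFP+ was 4.47 ± 0.54 (edgeR adjusted p = 0.000437). Olfr881 (chr9:37991825-37996408) had no count in either mESC library, 0.851 and 1.54 CPM in 2C::GFP+, 5.64 and 2.65 with SGC and 41.3 and 13.6 with SA. With the libraries of each group pooled, it was at least 1976-fold higher with SA than in mESC. Over 2C::GFP+ its log2 fold change was 4.66 ± 0.74 (edgeR adjusted p = 0.00641), which was lost without 2C::GFP+ replicate 1 (0.0714) or replicate 2 (0.111).

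The smallest adjusted p belonged to Olfr329-ps, which is annotated as protein coding in spite of its name. It had no count in mESC, and 94 and 9 counts in the 2C::GFP+ libraries, 311 and 29 with SGC and 1855 and 124 with SA. The log2 fold change was 4.43 ± 0.45 (edgeR adjusted p = 2.74e-05). It was also the only named member whose call of SA over SGC held under every alternative in which it was tested. The largest relative step among the 12 members with the smallest adjusted p was that of Olfr449, at 2 and 1 counts in 2C::GFP+ and 310 and 22 with SA. The pooled ratio was 145, with a 95% exact interval of 49.2 to 707 that covers counting error only and treats counts as independent.

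**Figure D1:**
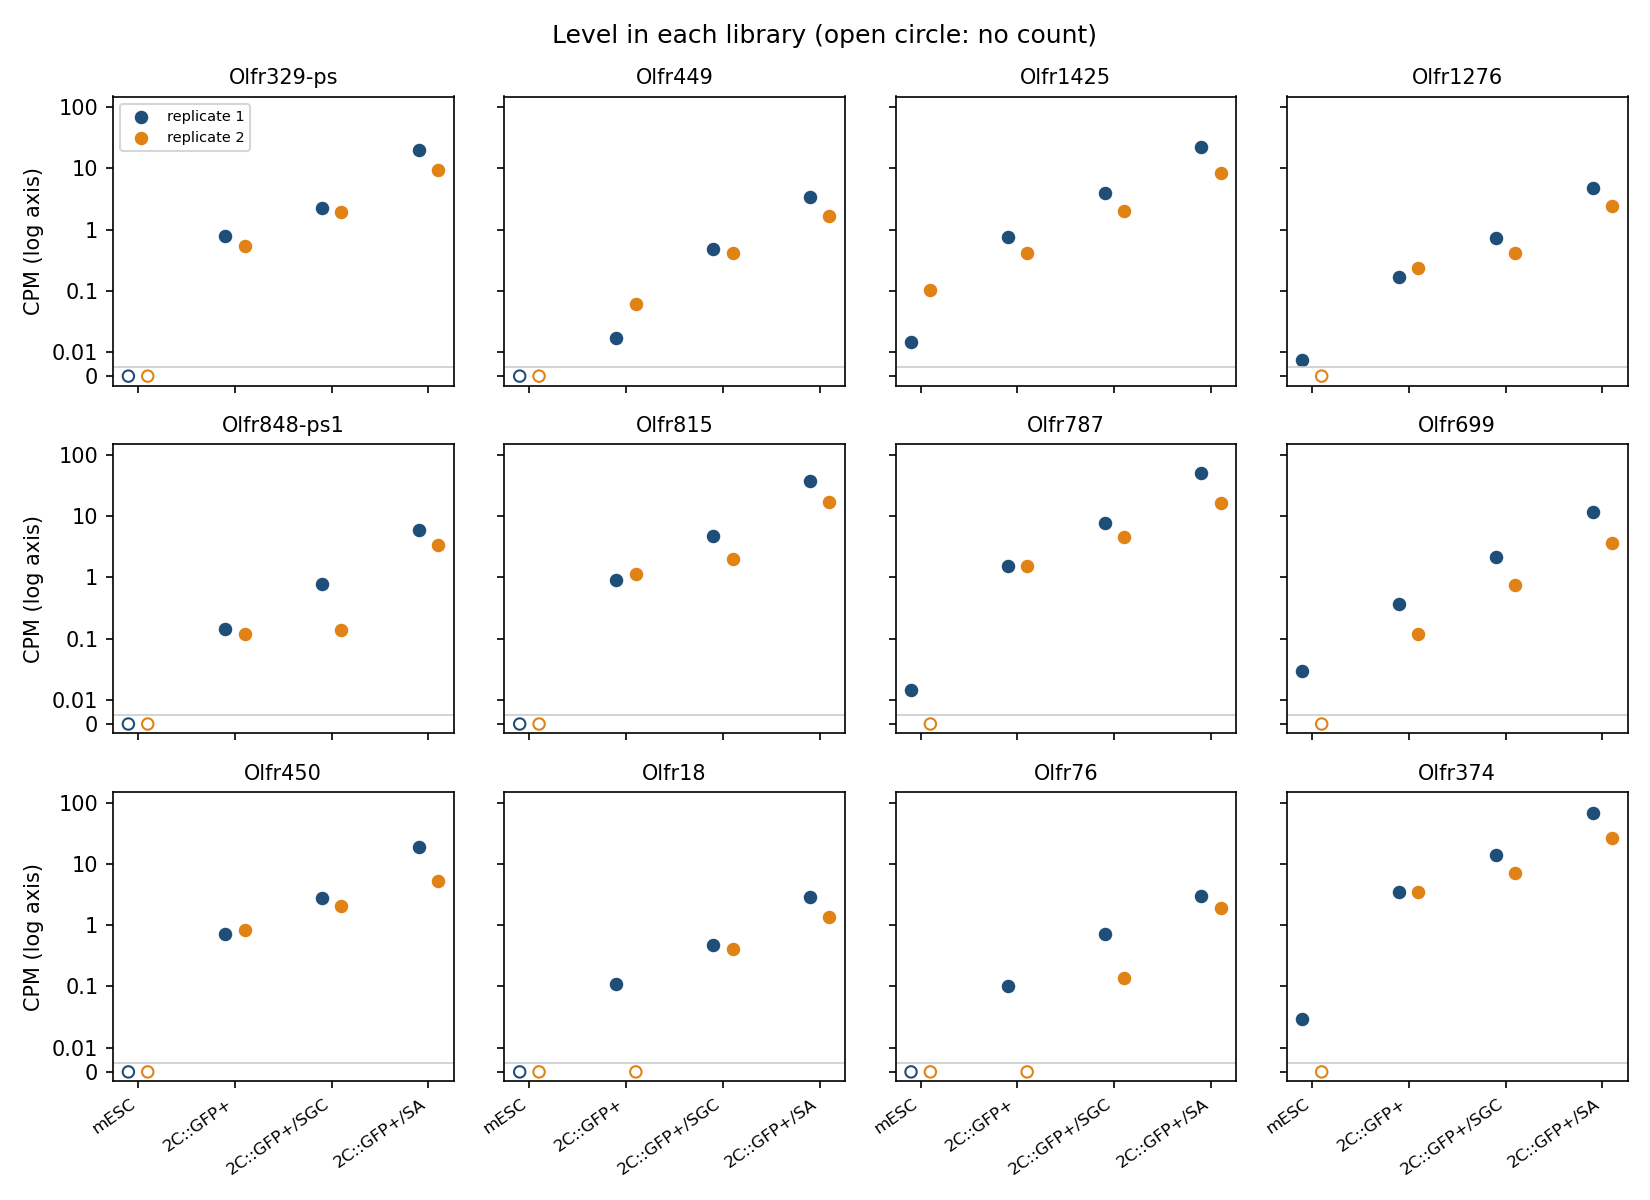
Level in CPM (log axis, with 0 below the grey line) of the 12 members with the smallest adjusted p for SA over 2C::GFP+, by group. Each point is 1 library, blue for replicate 1 and orange for replicate 2, and open circles mark libraries without a count. In all 12, both SA libraries lie above both 2C::GFP+ libraries, and mESC holds between 0 and 4 counts per library.

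Most risers had the same order of groups. Of the 34, 31 had mean CPM ordered mESC, 2C::GFP+, SGC, SA from low to high. No count at all was found in mESC for 25 of them, and 1 to 3 counts for 2 more. All 34 were also called higher with SA than in mESC, and 18 were called higher in 2C::GFP+ than in mESC. These comparisons share libraries, and the rise from 2C::GFP+ to SA is how the 34 were chosen. Among all tested genes, 25% were called higher with SA than in mESC and 15.2% higher in 2C::GFP+ than in mESC. The share of all tested genes with this order of means was not counted. Over all 94 members the highest group mean was in SA for 64, in SGC for 11, in 2C::GFP+ for 10 and in mESC for 9. A gene can meet the count rule through its highest group alone, so these numbers are a description.

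Their summed level went from 1.18 and 1.28 CPM in mESC to 16.4 and 18.5 in 2C::GFP+, 69.3 and 39.1 with SGC and 414 and 163 with SA. The other 60 members summed to 18.8 and 12.7 CPM in mESC, 17.6 and 17.5 in 2C::GFP+, 20.0 and 14.5 with SGC and 24.5 and 21.0 with SA, so their sum stayed between 12.7 and 24.5 CPM. The 1313 Olfr genes below the threshold summed to 2.12 and 2.46 CPM in mESC and to 11.9 and 9.24 with SA. The sums of the risers describe genes chosen for that rise. In the SA libraries, 5 members carried 63.0% and 54.9% of the members' summed CPM, and 10 carried 82.3% and 74.5%.

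**Figure D2:**
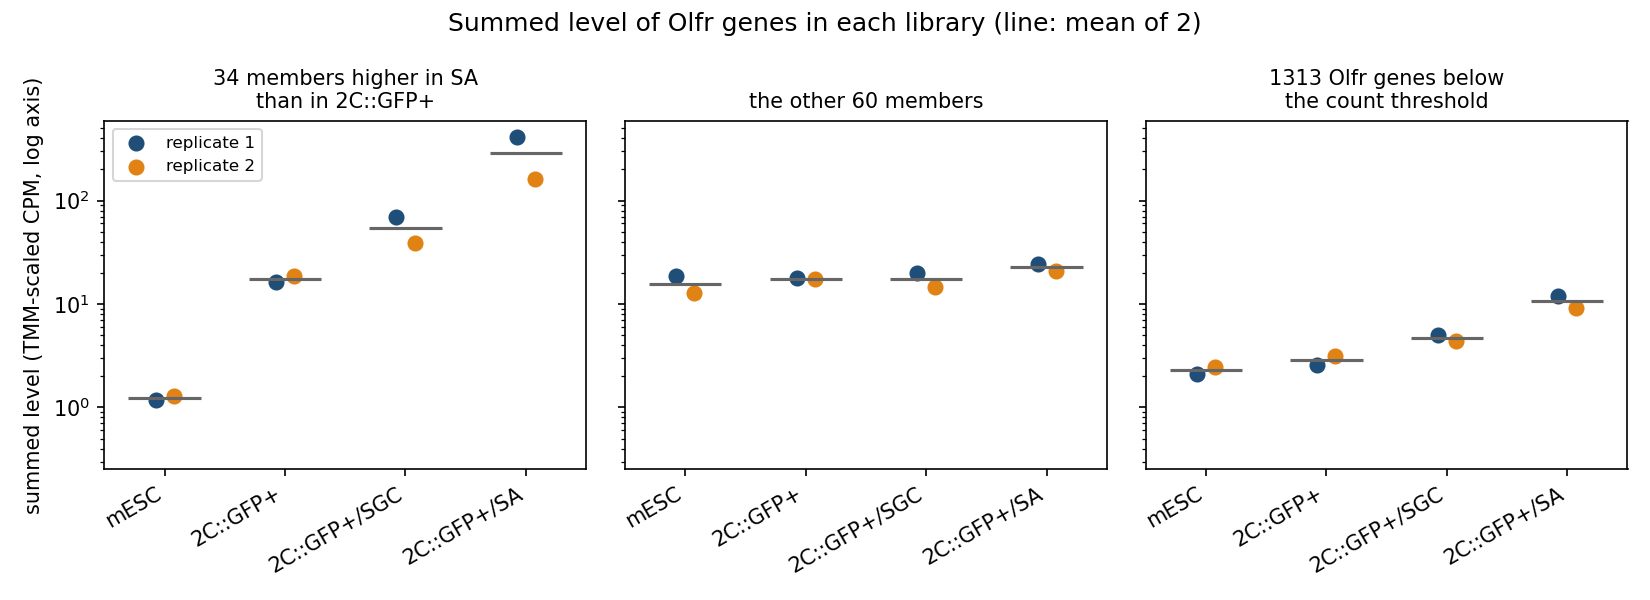
Summed level (TMM-scaled CPM, log axis) of the 34 members called higher with SA, the other 60 members and the 1313 Olfr genes below the threshold. Points are libraries, coloured by replicate, and lines are group means. The first set climbs from about 1.23 CPM on average in mESC to 289 with SA, while the other members lie between 12.7 and 24.5 in every library.

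The 2 SA libraries differed from each other. SA replicate 1 was above replicate 2 in 31 of the 34 risers, with a median log2 difference of 1.12. The share of all tested genes with this order was not counted, and the 34 were chosen for their rise with SA. Zscan4c, a marker of the 2C-like state, was at 1699 CPM in SA replicate 1 and 637 CPM in SA replicate 2, in the same order as most risers. Other genes of that list had the opposite order: Duxf3 was at 71.6 and 76.6 CPM and Zfp750 at 5.46 and 12.8 CPM. The part of the 2C-like state in the receptors' level was not tested.

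Per transcript length the order changed. In TPM, the authors' values scaled to transcript length and library, Olfr376 stood first with 67.6 and 29.0 in the SA libraries, followed by Olfr815 with 37.7 and 21.5 and Olfr1425 with 29.2 and 14.0. Olfr374, second by CPM, has 8846 exon bases and came seventh with 21.9 and 10.8 TPM. The short pseudogene Olfr848-ps1, with 930 exon bases, reached 18.6 and 13.1 TPM. Neighbours in this order do not differ beyond the spread between the 2 SA libraries. In all, 31 members had a mean of at least 1 TPM with SA.

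Against SGC, 17 members were higher with SA and none lower, where 7.92% of all tested genes were higher and 8.18% lower (16.1% in all). All 17 were among the 34. Olfr815 rose by 2.95 ± 0.48 on the log2 scale (edgeR adjusted p = 0.00472, and 0.0501 without 2C::GFP+ replicate 2), from 4.80 and 2.04 to 38.0 and 17.2 CPM. Olfr848-ps1 rose by 3.11 ± 0.64 (edgeR adjusted p = 0.00597, and 0.078 without SA replicate 1), from 109 and 2 counts to 551 and 44. This count fell by over 1.5 times without any of 3 libraries: 7 members were called without SGC replicate 1, 4 without SGC replicate 2 and 5 without SA replicate 1.

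Between SGC and 2C::GFP+, edgeR called no member and no gene at all (0%). At an unadjusted p under 0.05 there were 21 of the 73 tested members and 2037 of all genes. The smallest adjusted p among members was 0.204, that of Olfr449, with 66 and 6 counts with SGC. DESeq2 called 6 members, all higher, and limma on log2(TPM + 1) called none. Without SA replicate 2, which is in neither group but enters the shared spread, edgeR called 10 members, and without SA replicate 1 it called 2. The tested members had a median log2 fold change of 1.24, beside 0.03 over all genes, and in 33 of the 73 tested members both SGC libraries lay above both 2C::GFP+ libraries, where 24.3% of tested genes did so. In the deep SGC library 91 of the 94 members reached 10 counts, and in the shallow one 15 did.

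Between 2C::GFP+ and mESC, 21 members were higher and 2 lower, where 24.3% of all tested genes were called, 15.2% higher and 9.12% lower. Of the 21, 12 had no count in mESC and 3 had 1 to 3. With libraries pooled, Olfr329-ps was at least 39.4-fold higher (edgeR adjusted p = 7.57e-05), and Olfr815 was at least 48.2-fold higher, at 107 and 19 counts against none. Olfr1372-ps1, a transcribed pseudogene, was measured well in mESC, at 94 and 15 counts, and rose by 2.19 ± 0.43 on the log2 scale in 2C::GFP+ (edgeR adjusted p = 0.00195). It rose by a further 1.65 ± 0.39 with SA (edgeR adjusted p = 0.00604, and 0.078 without 2C::GFP+ replicate 1). Of the members named by rule, 21 were called here in either direction, and none of these calls held under every alternative: leaving out mESC replicate 1 left 4 members called, leaving out 2C::GFP+ replicate 1 left 13, and limma on log2(TPM + 1) called 2.

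Between SA and mESC, 46 members were higher and 2 lower, where 45.1% of all tested genes were called, 25% higher and 20.1% lower. In 31 of the 46 no count was seen in mESC, so most of these folds are lower bounds. With libraries pooled, Olfr815 was at least 1850-fold higher and Olfr450 at least 908-fold higher. The median log2 fold change of the tested members was 7.21 as fitted and 4.43 with genes without a count set at their bound. Only 5 of the 46 had at least 10 counts in mESC. Olfr1494, at 106 and 10 counts in mESC and 236 and 35 with SA, rose by 1.98 ± 0.48 (edgeR adjusted p = 0.00414).

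A few members fell, and others stayed at similar levels without a call. Olfr985 (chr9:40126308-40130184) stood at 3.83 and 3.39 CPM in mESC, 3.50 and 3.39 in 2C::GFP+, 2.38 and 1.50 with SGC and 1.03 and 1.39 with SA. Both SA libraries were the lowest of the 8. It fell by 1.56 ± 0.42 on the log2 scale with SA against 2C::GFP+ (edgeR adjusted p = 0.0126), and the call was lost without 2C::GFP+ replicate 1 (0.0683) or SA replicate 1 (0.0954). Olfr539 dropped from 258 and 11 counts in the mESC libraries to 17 and 2 in untreated 2C::GFP+ cells, with a log2 fold change of -3.22 ± 0.90 (edgeR adjusted p = 0.0183). For Olfr701 the mESC libraries held 71 and 18 counts and those of 2C::GFP+ 13 and 0 (log2 fold change -3.09 ± 1.01, edgeR adjusted p = 0.0394). The call of Olfr539 was lost without mESC replicate 1 (edgeR adjusted p = 0.303) or without either 2C::GFP+ library (0.138 and 0.0642). The call of Olfr701 was lost without any 1 of the 4 libraries compared or without SGC replicate 1 (0.0556 to 0.136). In the other mESC comparison, Olfr985 also fell by 1.63 ± 0.42 with SA (edgeR adjusted p = 0.00559, and 0.0557 without SA replicate 1).

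Olfr814 had between 1.90 and 3.47 CPM in all 8 libraries and a log2 fold change of 0.25 ± 0.39 with SA over 2C::GFP+ (edgeR adjusted p = 0.69). Olfr147 had 126 and 22 counts in mESC and 143 and 21 with SA. Olfr961 had 145 and 22 counts in mESC and 38 and 12 with SA, a log2 fold change of -0.58 ± 0.60 over 2C::GFP+ (edgeR adjusted p = 0.519). Of the 73 tested members, 24 were called in none of the 5 comparisons.

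**Figure D3:**
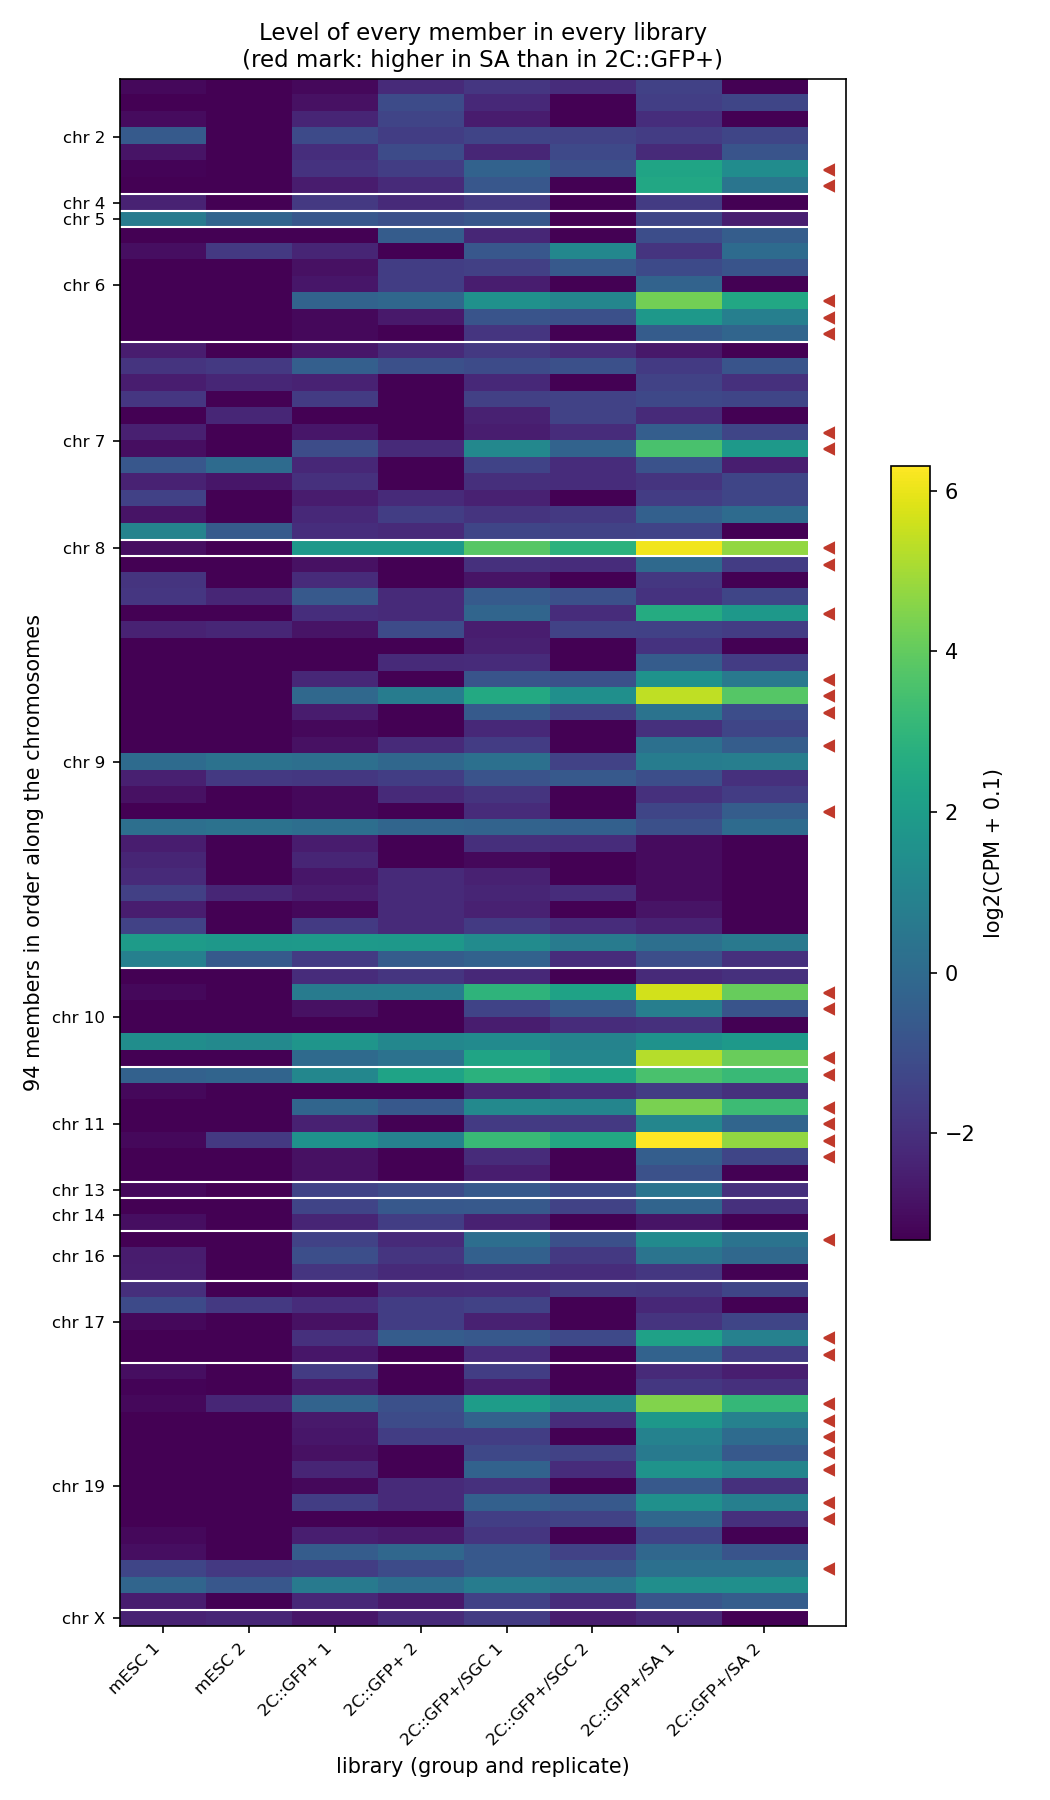
Level of all 94 members in the 8 libraries as log2(CPM + 0.1), in order along the chromosomes, with red marks for the 34 members higher with SA than in 2C::GFP+. Most marked rows are dark in mESC, where Olfr1372-ps1 is an exception at 0.685 and 0.770 CPM, and 31 of the 34 are brighter in SA replicate 1 than in replicate 2. They lie on 10 of the 15 chromosomes, next to unmarked rows.

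The members were spread over 15 chromosomes. Olfr genes less than 1 Mb apart were joined into clusters, which gave 63 annotated clusters, of which 30 held members and 15 held a riser. Clusters with at least 3 members numbered 10 and held 69 of the 94. The largest cluster of all, chr2:85330779-90403897 with 287 Olfr genes, held 2 members and no call in SA over 2C::GFP+. The chromosome 7 cluster at chr7:102476579-105369355, which holds the class I receptors, had 156 Olfr genes and 1 member, Olfr543, which was not called.

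The cluster with most members was chr9:37708964-40190134, with 17 of 123 Olfr genes, and it held risers and the falling member together. At one end, Olfr881, Olfr882-ps1, Olfr883 and Olfr884 follow each other within 58.3 kb, and the 3 tested all rose. At the other end, Olfr983, Olfr984, Olfr985 and Olfr986 follow each other within 103 kb, and none of the 3 tested rose. The members of the cluster summed to 8.58 and 6.52 CPM in mESC and 48.1 and 20.0 with SA.

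The chromosome 19 cluster, chr19:11826803-13921866, had 15 members of 91 Olfr genes and 8 risers, the highest number of any cluster. In it, 8 members follow each other without a gap, from Olfr1423 to Olfr1555-ps1, in 138 kb (chr19:12031787-12170112), and 5 of the 6 tested rose. Olfr1425 was the most abundant, at 0.743 and 0.416 CPM in 2C::GFP+ and 22.3 and 8.47 with SA, a log2 fold change of 4.61 ± 0.60 (edgeR adjusted p = 0.000287). Olfr76, in the same run, had 12 and 0 counts in 2C::GFP+ and 272 and 25 with SA. The remaining tested gene of the run, Olfr1423, did not move with them: it had 26 and 0 counts in 2C::GFP+ and 11 and 1 with SA.

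The chromosome 10 cluster, chr10:128989431-130214403, had 6 members, of which 4 were tested. Of these 4, 3 rose, among them Olfr787 and Olfr815. The members' sum went from 5.71 and 4.93 CPM in 2C::GFP+ to 93.1 and 38.1 with SA. In the chromosome 11 cluster at chr11:73350783-74366218 that sum went from 3.00 and 1.78 to 80.1 and 27.3 CPM, nearly all of it Olfr376. In the chromosome 6 cluster, chr6:41768770-43236959, 2 of 5 members rose, the adjacent genes Olfr450 and Olfr449. Olfr450 went from 0.734 and 0.832 CPM in 2C::GFP+ to 19.1 and 5.39 with SA. Olfr699 led the chromosome 7 cluster, chr7:106675005-108894420, at 44 and 2 counts in 2C::GFP+ and 1055 and 47 with SA. Genes of a cluster share their surroundings and are not replicates.

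**Figure D4:**
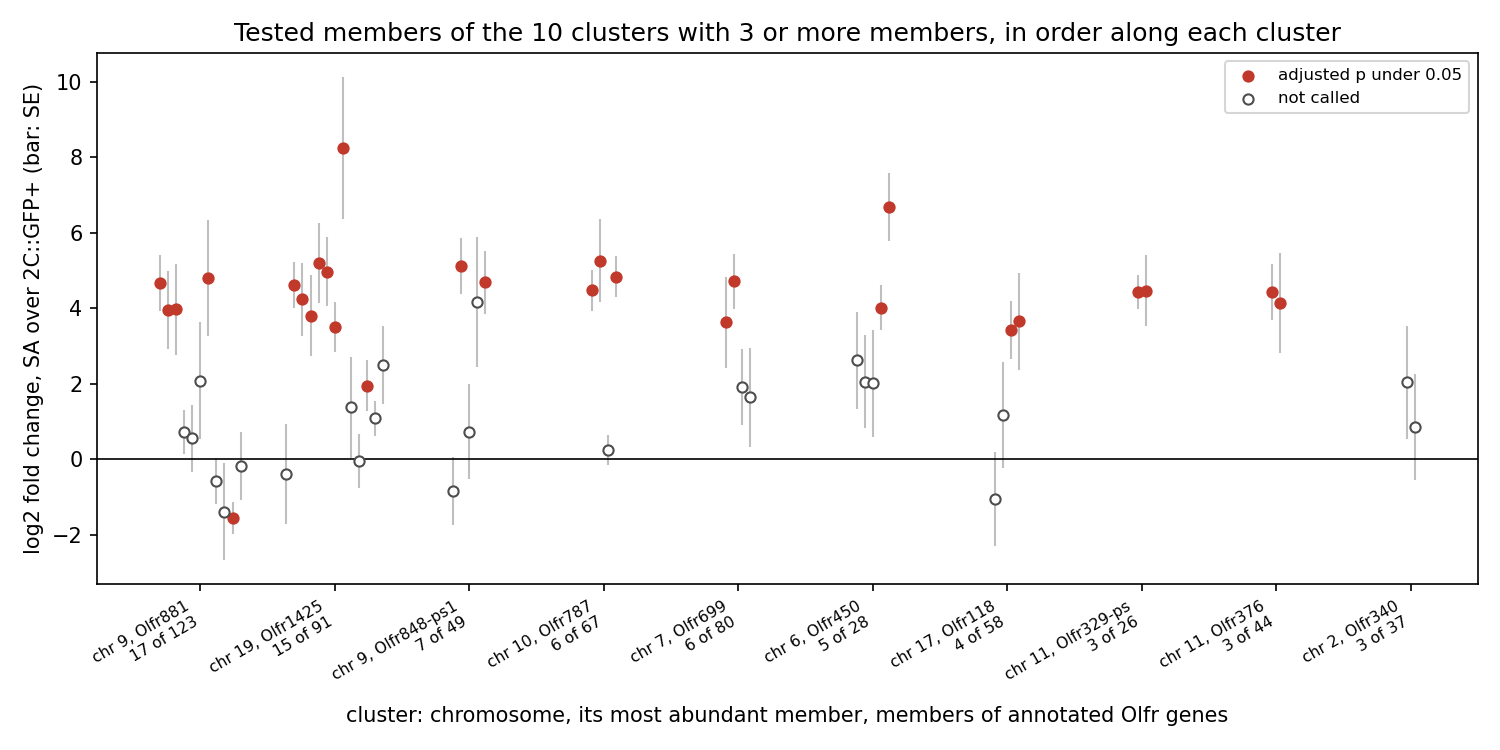
Log2 fold change of SA over 2C::GFP+ (bars are standard errors) for tested members of the 10 clusters with at least 3 members, in their order along each cluster. Filled points passed an adjusted p of 0.05 and open points did not. The chromosome 19 cluster holds 8 filled points above 0, and the chromosome 9 cluster led by Olfr881 holds 4 above 0 and 1 below.

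Members with nearly the same start window could differ in level. Over 2346 pairs of member windows the median identity was 53.7% of 300 aligned bases. The most alike pair was Olfr814 and Olfr815, with 88% identity, whose windows carry the same capitals in the sequences above. Olfr815 rose with SA by 4.83 ± 0.55 on the log2 scale over 2C::GFP+ (edgeR adjusted p = 0.000339), from 0 and 0 counts in mESC to 3468 and 223, while Olfr814 was not called. Olfr960 and Olfr961 had 79% identity. Olfr960 went from 2 and 0 counts in 2C::GFP+ to 28 and 8 with SA (log2 fold change 4.81 ± 1.54, edgeR adjusted p = 0.0332), and Olfr961 was at 122 and 13 and at 38 and 12. Olfr1431 and Olfr235 had 83% identity, with 251 and 22 counts against 26 and 0 in the SA libraries. Over 2C::GFP+ the log2 fold change of Olfr1431 was 3.50 ± 0.67 (edgeR adjusted p = 0.00199). That of Olfr235 was 1.37 ± 1.34 (edgeR adjusted p = 0.493), so its low counts do not show whether it rose. These pairs were picked by identity after the values had been seen, and the difference between the genes of a pair was not tested. Reads may also be shared between such genes: of the 31-base words in their transcripts, 55.1% of those of Olfr815, 45% of Olfr814, 27.4% of Olfr960 and 14.9% of Olfr961 also occur in another gene.

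**Figure D5:**
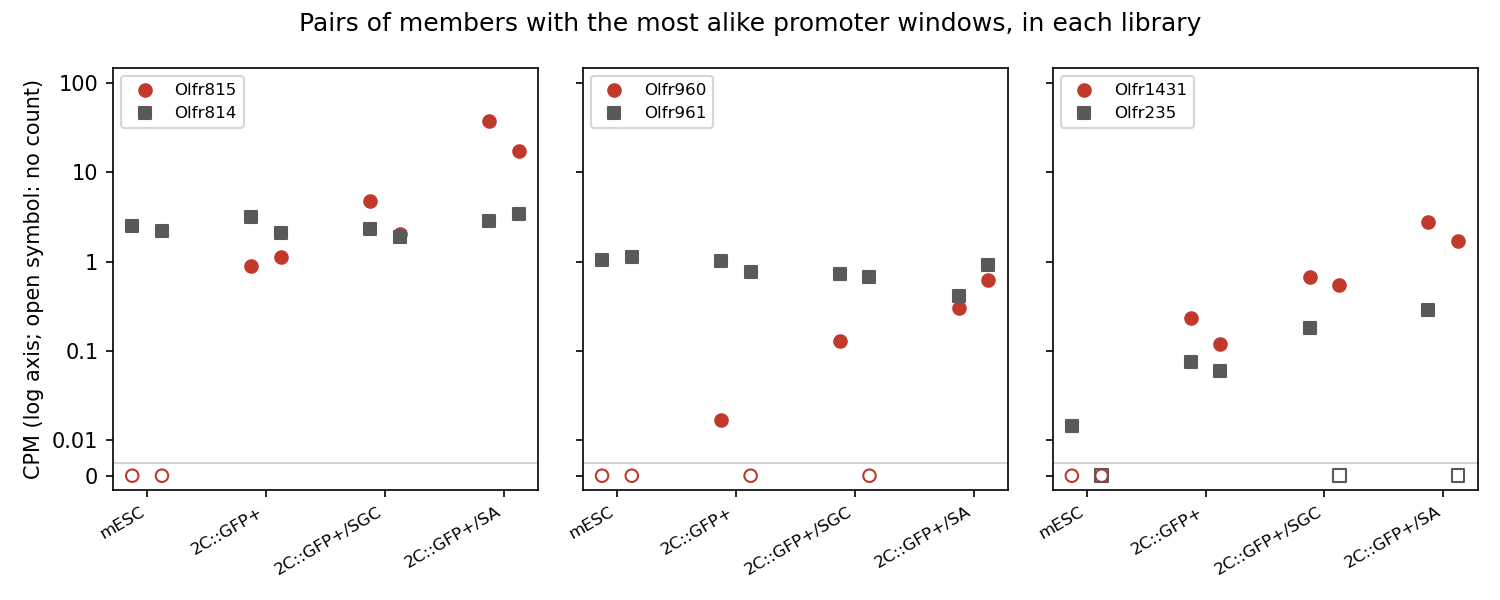
Level in CPM (log axis, with 0 below the grey line) of the 3 pairs of members with the most alike start windows, in each library by group. Circles are the member that rose with SA and squares its partner, and open symbols mark libraries without a count. Olfr815 climbs from 0 to 38.0 CPM while Olfr814 lies between 1.90 and 3.47.

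Motifs were searched on both strands, and overlaps between motifs were allowed. TATAAA was found in 27.3% of 22 riser windows, 34.0% of 47 windows of other members, 41.1% of all Olfr windows and 14.2% of all RefSeq windows. The homeodomain core TAATTA was in 13.6% of riser windows and 12.8% of the others, beside 18.6% of Olfr windows and 5.31% of all windows. The EBF core CCCNNGGG was in 9.09% of riser windows and 10.6% of the others, beside 3.07% of Olfr windows and 13.4% of all windows. GATTNAATC, a double homeodomain core of the DUX type, was in none of the 69 member windows, in 0.742% of Olfr windows and in 0.281% of all windows, so that fewer than 1 of 69 windows would hold it at either share. For 50 of the 69 members GENCODE lists another start more than 1000 bp upstream of the RefSeq start, and which start these cells used was not measured. Some RefSeq starts lie at an ATG, as in the sequences above, so these shares describe the windows and not promoters. The windows of members had a median GC content of 36.7%, beside 52.7% over all windows.

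Reads of close relatives can be assigned to the wrong gene, and how the submitters treated reads with several matches is not given in the sources used here. Of all 31-base words in a member's annotated transcripts, the median share also found in another gene was 10.1%. Of the 34 risers, 14 shared at most 5%, among them Olfr450 and Olfr848-ps1 with 0%, Olfr881 with 3.76% and Olfr699 with 3.82%. Olfr376 shared 13.0% and Olfr374 11.4%. Olfr815 shared 55.1% and Olfr1425 49.5%, both with other Olfr genes, so their values are uncertain in that part.

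Of the genes that flank or overlap the risers, 8 of 43 were expressed enough to be tested. Of these 8, 4 rose with SA over 2C::GFP+ and none fell, where 14.9% of all tested genes rose and 13.8% fell. A gene can pass the filter by being high with SA, so these counts describe only the genes that passed. Gm5580, which lies 1733 bp from Olfr214, went from 51.8 to 658 CPM on average (log2 fold change 3.67, edgeR adjusted p = 0.0079). Olfr214 itself had 2 and 0 counts in 2C::GFP+ and 54 and 10 with SA. Zfp560, a zinc finger gene 9042 bp from Olfr18, went from 18.8 to 175 CPM (log2 fold change 3.21, edgeR adjusted p = 0.0139). Gm13962 overlaps Olfr1276 on the opposite strand without a shared exon base and rose by 4.97 (edgeR adjusted p = 0.0075). Whether the counting used strand is not given in the sources used here. A further riser, Gm26993, lies 311 kb from Olfr1491 and rose by 4.20 (edgeR adjusted p = 0.0189) at a mean of 0.505 CPM with SA. Of 22 tested flanking genes of the other members, 4 rose and 1 fell.

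Receptors of the vomeronasal organ, which detect pheromones, were also present. Of the Vmn1r genes 17 were tested, and 3 rose and none fell with SA over 2C::GFP+, which is close to the 14.9% of all tested genes that rose. Their summed level went from 3.13 and 3.18 CPM in mESC and 12.6 and 18.6 in 2C::GFP+ to 143 and 54.1 with SA. Of the Vmn2r genes 25 were tested, and 9 rose and none fell. No trace amine receptor (Taar), bitter taste receptor (Tas2r) or formyl peptide receptor (Fpr) reached the members' count threshold.

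In the machinery of olfactory signalling as many genes rose as fell. Of 15 tested genes of the transduction pathway, 3 rose and 3 fell with SA over 2C::GFP+, at a median log2 fold change of 0.03. Over all tested genes 14.9% rose and 13.8% fell. Gnal was at 2.28 and 3.13 CPM in mESC, 0.634 and 0.594 in 2C::GFP+ and 1.52 and 2.16 with SA, a rise of 1.54 over 2C::GFP+ (edgeR adjusted p = 0.0280). Adcy3 fell by 0.63 (edgeR adjusted p = 0.0383), and Cnga2 was at 0.0657 CPM or less in every library. Of 7 tested genes of receptor transport none was called, and Rtp1, a chaperone that brings receptors to the cell surface, had no count in any library.

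Of 27 tested genes of receptor choice and nuclear architecture, 4 rose and 8 fell with SA over 2C::GFP+. Over all tested genes 14.9% rose and 13.8% fell. Ldb1 fell by 0.59 (edgeR adjusted p = 0.0062), Lbr, the lamin B receptor of the inner nuclear membrane, fell by 0.83 (edgeR adjusted p = 0.000246), and the heterochromatin protein gene Cbx5 fell by 0.59 (edgeR adjusted p = 0.00489). Ehmt2, a histone H3 lysine 9 methyltransferase, fell by 0.83 (edgeR adjusted p = 0.000942). Lmna fell by 0.78 (edgeR adjusted p = 0.00184), from 98.0 and 94.0 CPM in 2C::GFP+ to 58.2 and 53.5 with SA. In mESC it was at 57.6 and 43.1 CPM. Atf5 rose by 0.87 (edgeR adjusted p = 0.00389) and Nfia by 3.03 from a low level (edgeR adjusted p = 0.00453). Lhx2 had a log2 fold change of 1.09 (edgeR adjusted p = 0.0797), Ebf1 of -0.32 (0.332) and Kdm1a of -0.19 (0.272). Emx2 was at 0.154 CPM or less in every library.

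Markers of other cell types were counted in the same comparison, where 14.9% of all tested genes rose and 13.8% fell. Of 12 tested markers of olfactory sensory neurons, 2 rose and 2 fell with SA over 2C::GFP+, and their sum was between 54.9 and 107 CPM over the 8 libraries. Omp, the marker of mature sensory neurons, was at 1.47 and 1.37 CPM in 2C::GFP+ and 1.36 and 0.770 with SA. Of 7 tested basal and sustentacular markers 2 rose, Neurog1 and Krt5, and the sum of the list went from 5.87 and 3.45 CPM to 12.2 and 25.2. Most of the SA sums was Neurod1, at 7.01 and 22.0 CPM, which was not called (edgeR adjusted p = 0.0711). Cyp2g1, Ermn, Sult1c1 and Cbr2 were too low for the test. Of 5 tested testis germ cell markers 2 rose, Dazl and Ddx4, and 1 fell. The spermatid genes Prm1, Prm2 and Tnp1 were at 0.0729 CPM or less in every library. Other spermatid genes of the list were somewhat higher: Acrv1 had 31 counts in SGC replicate 1 and 10 and 2 with SA. Spaca1 had no count in mESC, 4 and 0 in 2C::GFP+ and 18 and 4 with SA. It was not called over 2C::GFP+ (edgeR adjusted p = 0.109) but was over mESC (0.0106). Of 6 tested neuron markers 1 rose and 1 fell. Of 4 tested fibroblast markers 3 rose, their sum going from 9.51 and 9.21 to 34.3 and 27.6 CPM, and their part in the receptors' rise was not tested. Of 17 genes of the 2C-like state 16 rose and none fell, and 4 of 6 embryonic stem cell markers fell.

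Near the threshold the values were small. The last members inside were Olfr1349 with 10, 0, 6, 2, 28, 2, 5 and 0 counts (mESC, 2C::GFP+, SGC and SA, replicate 1 before replicate 2), Olfr1424 with 1, 0, 7, 0, 10, 0, 18 and 2, and Olfr451-ps1 with 0, 0, 6, 4, 10, 0, 68 and 0. The first genes outside were Olfr1393 with 16, 2, 4, 0, 3, 0, 9 and 0, Olfr262 with 9 in SGC replicate 1 and 10 in SA replicate 1, and Olfr847 with 9 and 40 in the same libraries. A second-highest count of 10 or 11 was found in 10 members, and one of 8 or 9 in 13 other Olfr genes.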

How the data were processed

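RNA-seq counts per gene and TPM values for 8 libraries were used as the authors deposited them. The tools named in the submitters' processing notes are featureCounts 2.0.0, STAR 2.7.4a, Trim Galore 0.6.5 and FastQC 0.11.9, and the builds are GRCm38 and mm10. The deposited counts are unnormalized whole numbers, and the deposited TPM are scaled by the authors to transcript length and library. Low counts are mostly even (71.1% to 73.9% of genes with 1 to 10 counts in every library). How read pairs were counted is not given in the sources used here. Intervals cover counting error at most, and they treat counts as independent. If a pair was counted as 2, the intervals would be too narrow and folds from the 3-count floor too high.

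Counts were fitted with edgeR 4.0.16 (R 4.3.3, filterByExpr, TMM, robust quasi-likelihood, 1 term per group, all 8 libraries), which tested 20608 genes. Calls use an adjusted p under 0.05 and errors are |log2 fold change| over the root of F. Fits were tested on simulated data first. Alternatives were RLE size factors, DESeq2 1.42.0, no or a stricter filter, only the 4 libraries compared, limma 3.58.1 on log2(TPM + 1) and log2(TPM + 0.1), a replicate term, and each library left out. Members were matched to GENCODE M21 and to RefSeq start windows by symbol, and windows were aligned globally.

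The members and the gene lists were chosen with earlier results of these data known. Named genes are up to 12 called members per direction and comparison by adjusted p, the 10 highest by mean CPM and by mean TPM, 3 genes on either side of the threshold, the highest member of each cluster with 3 or more members, their neighbours, and listed genes. Olfr147, Olfr214, Olfr235, Olfr543, Olfr960, Olfr961, Olfr1423, Olfr1491, Olfr1494 and the other members given inside runs of adjacent genes were named after their values were seen.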

Additional observations from a re-analysis of the deposited data

How the results depend on the processing

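In every group replicate 1 was the deep library and replicate 2 the shallow one, so replicate number and depth cannot be told apart. The replicate differences of 2 groups correlated across genes at r = 0.0411 to 0.142. Whether libraries with the same replicate number were made or sequenced together is not given in the sources used here. With a replicate block the members called were 27 (2C::GFP+ over mESC), 7 (SGC over 2C::GFP+), 35 (SA over 2C::GFP+), 19 (SA over SGC) and 50 (SA over mESC). For 2C::GFP+ over mESC, limma called 2 members on log2(TPM + 1), 13 on log2(TPM + 0.1) and 0 without a filter, against 23 with edgeR. For SGC over 2C::GFP+, against 0, there were 6 with DESeq2, 11 without a filter and 5 in the fit of the 4 libraries. For SA over SGC, against 17, there were 11 in the fit of the 4 libraries and 6 with limma without a filter. For SA over mESC, against 48, the stricter filter left 30, of only 37 members tested. With each library left out in turn, the counts ran from 4 to 29 (2C::GFP+ over mESC), 0 to 10 (SGC over 2C::GFP+), 15 to 35 (SA over 2C::GFP+), 4 to 20 (SA over SGC) and 34 to 53 (SA over mESC). The members numbered 61 under either of 2 stricter rules, 10 counts in at least 3 libraries and 20 counts in at least 2. Of 81 calls of named members, 32 held under every alternative in which the gene was tested, 49 were lost under at least 1 and 0 reversed. The cause of these differences was not tested. In the shallowest library, of 12299931 counts, an absence of counts allows a level of up to 0.244 CPM (3 counts of the unscaled total), if counts are independent.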
